A study of Homo sapiens with 9 samples.

Results

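The comparison described here sets cells given either of 2 treatments used as cell-cycle blocks against cells given the solvent alone. All 9 RNA libraries of the series entered it: 3 from Raji cells treated with hydroxyurea (HU), 3 from Raji cells treated with thymidine and nocodazole (Thy-Noc) and 3 from Raji cells treated with DMSO. The mean of the HU and Thy-Noc groups, each weighted equally, was compared with the DMSO mean for the 11346 of 15436 listed genes that reached 1 CPM (reads scaled to library size) in at least 3 of the 9 libraries. A gene was then said to have moved alike under both treatments when 4 conditions held. Its pooled change passed the test, both treatments had the same sign against DMSO, all 6 treated libraries lay on the same side of all 3 DMSO libraries, and the smaller of the log2 changes was at least 0.5 of the larger. Raji is a widely used human cell line grown from the tumour of a Burkitt lymphoma, so all groups share that background. Neither doses nor exposure times, nor the order in which thymidine and nocodazole were added, could be taken from the labels.

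Hydroxyurea inhibits ribonucleotide reductase, which starves replication forks of deoxynucleotides and slows cells in S phase. Excess thymidine also stalls DNA synthesis by unbalancing the nucleotide pools, and nocodazole depolymerises microtubules so that cells stop in mitosis with an active spindle checkpoint. Transcripts of the cell cycle follow the phase in which cells accumulate, with histone and replication genes high in S phase and mitotic kinases, kinesins and cyclins high in G2 and M.

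The library totals ran from 74940755 to 110485145 counts. Of the B-cell markers, CD79A ran from 245.1 to 350.4 CPM over the 9 libraries, CD79B from 495.1 to 1002 CPM, PAX5 from 224.6 to 1024 CPM and CD74 from 262.6 to 648.6 CPM, while MS4A1 stood at 12.65 to 31.57 CPM, CD22 at 0.866 to 9.004 CPM and BLK at 0.136 to 13.33 CPM. Of 14 T and NK cell markers, 1 had values here, at 0.154 to 0.924 CPM. The mitochondrial share of counts was 1.001 to 1.083% in DMSO, 1.45 to 1.82% in HU and 1.03 to 1.54% in Thy-Noc, and its part in the results was not tested. At least a 10-fold gap within a group, after adding 0.5 CPM, was seen for 1838 of the 11346 genes (16.2%), which are called unsteady here. Whether replicates were separate cultures is not stated in the labels, so p-values measure only how far these samples spread, which may be technical. In bulk RNA, fewer cells in a phase and less RNA per cell cannot be told apart.

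Few genes passed the main test of the pooled contrast, and the number depended on the tool. By the quasi-likelihood test of edgeR, adjusted by Benjamini-Hochberg, 8 genes passed an adjusted p of 0.05, which is 0.0705% of those tested: 5 were higher (0.0441%) and 3 were lower (0.0264%) than in DMSO. Of these, 5 moved alike under both treatments (0.0441% of those tested), namely SLBP, CRIP3, SETD2 and ZNF274 upwards (0.0353%) and WDR41 downwards (0.00881%). The others were FCRL3, JSRP1 and ABHD17B, whose sizes differed between HU and Thy-Noc. The pooled log2 change had a median of 0.00 and a median standard error of 0.306 over all genes. On the same fit, HU alone passed for 404 genes (3.56%; 2% higher, 1.56% lower) and Thy-Noc alone for 4 (0.0353%; 0.0264% higher, 0.00881% lower), both against the same 3 DMSO libraries. DESeq2 called 489 genes higher (4.31%) and 425 lower (3.75%) in the pooled contrast, with 79 (0.696%) and 68 (0.599%) moved alike, and limma called 12 (0.106%) and 7 (0.0617%). All 8 genes were called by both tools. Leaving out a library moved the edgeR count of higher genes by over 1.5 times without DMSO replicate 1 (8), DMSO replicate 2 (12), Thy-Noc replicate 1 (9) or Thy-Noc replicate 2 (3), and that of lower genes without DMSO replicate 2 (5), HU replicate 2 (9) or Thy-Noc replicate 1 (7). SLBP, CRIP3, SETD2 and FCRL3 passed under each treatment separately as well as pooled (0.0353%).

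**Figure D1:**
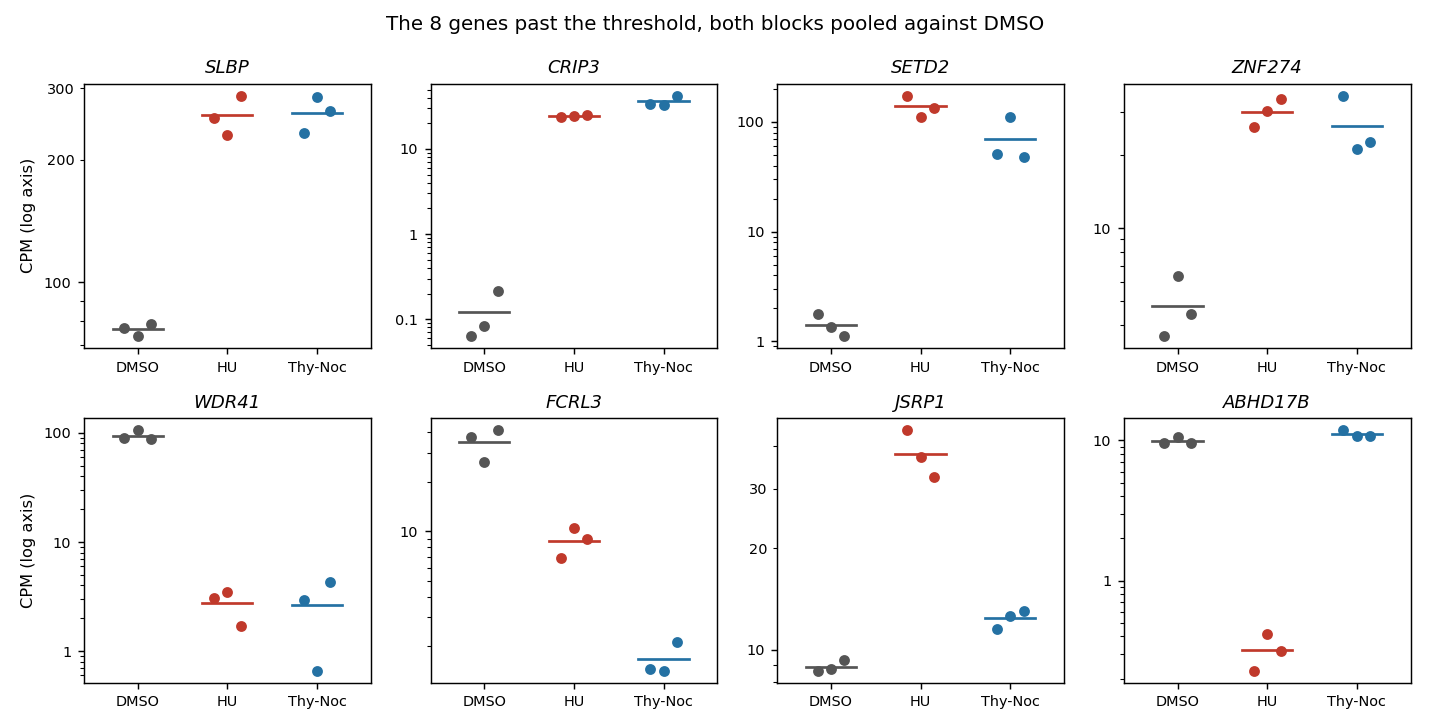
Expression of the 8 genes past the pooled threshold, in CPM on a log axis that differs between panels, with 1 point per library and a line at each group's mean (n = 3). SLBP, CRIP3, SETD2 and ZNF274 stand above DMSO in all 6 treated libraries and WDR41 and FCRL3 below it, while JSRP1 and ABHD17B differ mainly in HU.

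Of the 5 genes that moved alike, SLBP, CRIP3 and SETD2 passed in each of the 9 fits that left out a library, at edgeR adjusted p of at most 0.0304, 0.0254 and 0.0336. The promoter windows of these 3 genes are shown because they moved alike and their calls held in every one of those fits. FCRL3 and ABHD17B, which did not move alike, also passed in each of the 9 fits, and their windows are not shown. Each runs from 250 bases before to 50 bases after the gene start, is 300 bases long and comes from RefSeq on GRCh38.p14, where 7 of the 8 genes had an entry. The SLBP window is chr4:1712270-1712569, that of CRIP3 is chr6:43308777-43309076 and that of SETD2 is chr3:47164064-47164363, all on the minus strand and written 5′ to 3′. Capitals mark matches to the motifs searched.
SLBP: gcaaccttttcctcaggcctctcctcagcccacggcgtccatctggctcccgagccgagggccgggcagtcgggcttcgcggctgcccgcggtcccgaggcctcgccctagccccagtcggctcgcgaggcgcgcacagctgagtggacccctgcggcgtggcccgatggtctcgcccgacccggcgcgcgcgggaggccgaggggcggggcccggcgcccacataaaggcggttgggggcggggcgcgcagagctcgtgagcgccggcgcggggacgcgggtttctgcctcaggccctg
CRIP3: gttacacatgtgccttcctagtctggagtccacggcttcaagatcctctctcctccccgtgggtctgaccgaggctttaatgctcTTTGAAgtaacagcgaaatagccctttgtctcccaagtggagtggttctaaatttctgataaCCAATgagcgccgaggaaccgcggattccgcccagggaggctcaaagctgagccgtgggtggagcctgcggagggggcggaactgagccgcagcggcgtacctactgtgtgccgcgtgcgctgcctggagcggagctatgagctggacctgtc
SETD2: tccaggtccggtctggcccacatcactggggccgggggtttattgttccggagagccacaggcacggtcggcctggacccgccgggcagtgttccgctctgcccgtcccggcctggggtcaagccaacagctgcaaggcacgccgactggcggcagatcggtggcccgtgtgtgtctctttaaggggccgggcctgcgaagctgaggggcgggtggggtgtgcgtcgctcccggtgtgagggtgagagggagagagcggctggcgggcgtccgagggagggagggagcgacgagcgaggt

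Both strands were searched for the E2F sites TTTCCCGC and TTTGGCGC, the cell cycle homology region TTTGAA, the CCAAT box, the E-box CACGTG and the AP-1 site TGANTCA. The SLBP and SETD2 windows held none of these letters. The CRIP3 window held TTTGAA 165 bases and CCAAT 103 bases before the RefSeq gene start, both on the gene's strand. Of the windows not shown, that of ABHD17B held CCAAT 3 times and that of FCRL3 held TTTGAA and the AP-1 site. Those of ZNF274 and WDR41 held none of the motifs. Among 35116 RefSeq windows of 300 bases, 15.2% held TTTGAA, 34.6% held CCAAT, 1.63% and 0.652% held the E2F sites in the order given, 7.26% held the E-box and 7.71% the AP-1 site. GC content was 76.7% in the SLBP window, 58.7% in that of CRIP3 and 70.3% in that of SETD2.

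SLBP encodes the stem-loop binding protein, which binds the 3′ end of replication-dependent histone mRNAs and acts in their processing and translation. The gene (ENSG00000163950) lies at chr4:1692800-1712555 on the minus strand of GRCh38 and overlaps no other annotated gene in GENCODE 29. It stood at 77.3, 73.6 and 79.0 CPM in the 3 DMSO libraries, while HU read 254, 230 and 287 CPM and Thy-Noc 232, 286 and 263 CPM. The treated libraries lay at 3.38 times the DMSO mean and overlapped neither it nor any DMSO library, while HU and Thy-Noc overlapped each other. The pooled log2 change was 1.75 ± 0.108 (SE, n = 6 against 3), with an edgeR adjusted p of 0.00534. The changes under HU and Thy-Noc were 1.75 and 1.76, and their difference was -0.02 ± 0.114 (SE). That difference did not pass (edgeR adjusted p = 0.970).

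CRIP3, a small cysteine-rich protein with LIM domains, rose from very low values. It stood at 0.0633, 0.0839 and 0.216 CPM in DMSO (expected counts of 5, 9 and 17), while HU read 23.6, 24.4 and 25.1 CPM and Thy-Noc 33.6, 33.2 and 42.3 CPM. No DMSO library came near a treated library, and all 3 Thy-Noc libraries lay above all 3 HU libraries. The gene met the CPM filter through treated libraries only. Pooled over both blocks, the log2 change was 7.93 ± 0.536 (SE), with an edgeR adjusted p of 0.00534. HU and Thy-Noc differed by -0.58 ± 0.402 on the log2 scale (edgeR adjusted p = 0.512), which does not show that they act alike. The gene (ENSG00000146215, chr6:43299710-43308797, minus strand) overlaps the end of ZNF318 on the same strand and SLC22A7 on the other. ZNF318 itself stood at 5.26 ± 2.13 CPM in DMSO, 1.26 ± 0.448 in HU and 4.45 ± 4.76 in Thy-Noc (mean ± SD, n = 3 each) and did not pass (edgeR adjusted p = 0.512).

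SETD2, the methyltransferase that places trimethyl marks on histone H3 in transcribed gene bodies, also rose from a low value. It stood at 1.76, 1.36 and 1.12 CPM in DMSO, while HU read 174, 111 and 135 CPM and Thy-Noc 50.9, 111 and 47.8 CPM. The lowest treated library, Thy-Noc replicate 3, was well above the highest DMSO library, and the highest Thy-Noc library stood level with the lowest HU library. Its pooled log2 change was 6.13 ± 0.446 (SE), with an edgeR adjusted p of 0.00534, and the single changes were 6.63 in HU and 5.63 in Thy-Noc. The difference of 0.999 ± 0.370 did not pass (edgeR adjusted p = 0.205), which does not show that HU and Thy-Noc act alike. The gene (ENSG00000181555) lies at chr3:47016429-47163967 on the minus strand, has 9 annotated transcripts and overlaps a pseudogene of MRPL57 on the plus strand. The deposited values may not hold all reads of a gene, so a level this low in DMSO cannot be read as absence of the enzyme.

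ZNF274, a KRAB zinc finger protein that binds zinc finger gene clusters and recruits a histone H3 methyltransferase, was the fourth gene to rise. It stood at 3.61, 6.37 and 4.44 CPM in DMSO, while HU read 25.9, 30.2 and 33.9 CPM and Thy-Noc 34.9, 21.1 and 22.5 CPM. The 6 treated libraries shared 1 range, all of it above DMSO. As a pooled log2 change this was 2.54 ± 0.280 (SE), with an edgeR adjusted p of 0.0463, and the single changes were 2.64 and 2.44. This call was narrow: it held in 2 of the 9 fits without a library (those without DMSO replicate 2 and without Thy-Noc replicate 1), over which the edgeR adjusted p ran from 0.0374 to 0.162. The gene (ENSG00000171606) is at chr19:58183029-58213562 on the plus strand.

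WDR41 was the 1 gene that fell alike under both treatments. Its product is a WD-repeat partner of C9orf72 and SMCR8 in a complex found on lysosomes. It stood at 89.5, 105 and 88.1 CPM in DMSO, while HU read 3.08, 3.48 and 1.71 CPM and Thy-Noc 2.97, 0.661 and 4.33 CPM. The treated mean was 2.71 CPM against 94.3 CPM in DMSO, with no overlap, and Thy-Noc spanned the whole HU range. This was a pooled log2 change of -5.12 ± 0.535 (SE), with an edgeR adjusted p of 0.0431, and the single changes were -5.10 and -5.15. Without Thy-Noc replicate 2 it still passed, and without any other library it did not, the edgeR adjusted p running from 0.00622 to 0.125 over the 9 fits. The gene (ENSG00000164253, chr5:77425970-77620611, minus strand) has 28 annotated transcripts and overlaps 4 genes on the other strand, PDE8B among them. Deposited values may miss part of a gene's reads, so this fall may not be that of the whole gene.

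FCRL3, an Fc receptor-like immunoreceptor of the B-cell surface, fell under both treatments but not by a like amount. It stood at 37.3, 26.3 and 41.2 CPM in DMSO, while HU read 6.85, 10.4 and 8.92 CPM and Thy-Noc 1.46, 1.41 and 2.13 CPM. The 3 groups did not overlap, with Thy-Noc lowest, and the pooled test was passed in each of the 9 fits without a library. Its pooled log2 change was -3.19 ± 0.224 (SE), with an edgeR adjusted p of 0.00534. The single changes were -2.0 in HU and -4.39 in Thy-Noc, and the difference of 2.39 ± 0.280 passed (edgeR adjusted p = 0.0186), as it did in 4 of the 9 fits without a library. The smaller change was 0.456 of the larger, just under the 0.5 that defined moving alike. FCRL3 (ENSG00000160856) is at chr1:157674321-157700857 on the minus strand. It was also the 1 member of the 30 tested genes of B-cell identity and receptor signalling that passed the pooled test.

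JSRP1 and ABHD17B passed the pooled test with most of their change in HU. JSRP1, a junctional sarcoplasmic reticulum protein known from muscle, stood at 8.66, 8.75 and 9.31 CPM in DMSO, while HU read 44.6, 37.1 and 32.5 CPM and Thy-Noc 11.5, 12.6 and 13.02 CPM. Both treated groups lay above DMSO, but the HU change of 2.10 stood against 0.48 in Thy-Noc, and the difference of 1.62 ± 0.156 passed (edgeR adjusted p = 0.0131). Its pooled log2 change was 1.29 ± 0.140 (edgeR adjusted p = 0.0463), and it passed in 0 of the 9 fits without a library, at edgeR adjusted p from 0.0527 to 0.154. JSRP1 (chr19:2252252-2269759, minus strand) overlaps OAZ1 on the other strand, and the counting's use of strand is not stated.

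ABHD17B, a serine hydrolase that removes palmitate from membrane proteins, was low in HU only by its values. It stood at 9.61, 10.5 and 9.57 CPM in DMSO, while HU read 0.227, 0.414 and 0.314 CPM and Thy-Noc 11.8, 10.7 and 10.8 CPM. All 3 Thy-Noc libraries lay above all 3 DMSO libraries. The pooled log2 change of -2.39 ± 0.190 (edgeR adjusted p = 0.00783) is therefore the average of -4.95 in HU and 0.16 in Thy-Noc, which differed by -5.12 ± 0.272 (edgeR adjusted p = 0.00229). Fitted with the 6 treated libraries as a single group, FCRL3 (edgeR adjusted p = 0.713), JSRP1 (0.741) and ABHD17B (0.913) did not pass, while the 5 genes that moved alike did. In that fit a difference between HU and Thy-Noc counts as spread. The split therefore follows from how the genes were sorted and is no separate evidence.

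**Figure D2:**
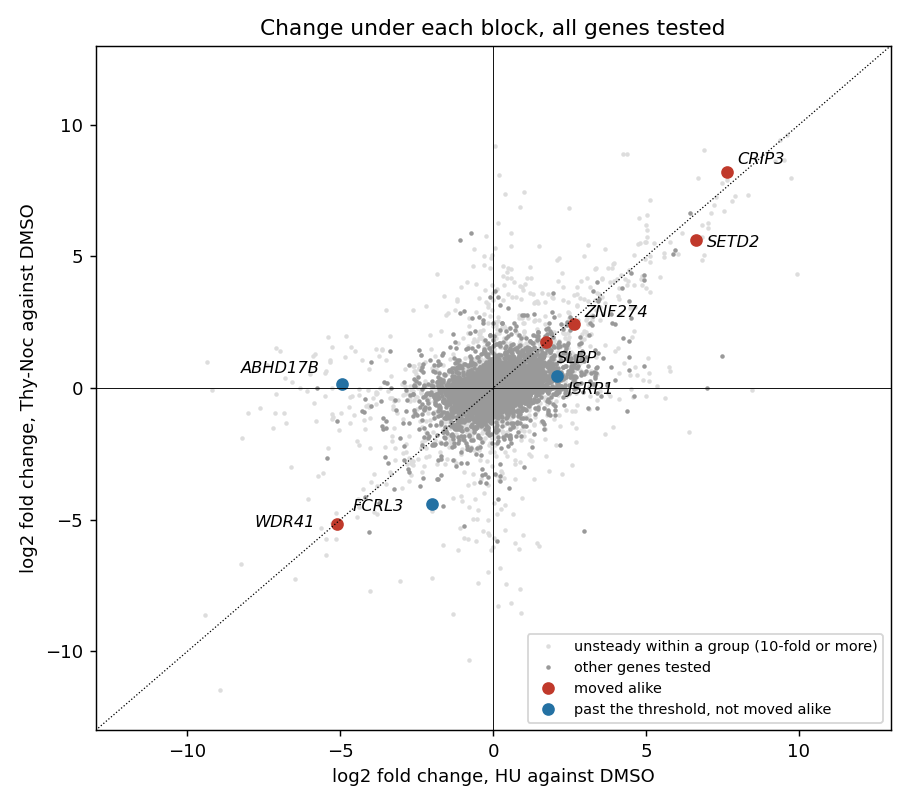
Log2 change against DMSO under HU (horizontal) and Thy-Noc (vertical) for each of the 11346 genes tested, with unsteady genes in light grey and equal change on the dotted line. SLBP, ZNF274, WDR41, CRIP3 and SETD2 lie near the line, FCRL3 below it, and JSRP1 and ABHD17B near the horizontal axis; both axes use the same DMSO libraries, so the spread of points along the line carries no test.

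Just outside the threshold stood JUNB and NCKAP1, each with an edgeR adjusted p of 0.0552. JUNB, which joins FOS proteins in AP-1, stood at 39.8, 40.2 and 43.1 CPM in DMSO, while HU read 100, 116 and 110 CPM and Thy-Noc 42.4, 47.4 and 44.4 CPM. NCKAP1, a subunit of the WAVE complex that drives actin branching, stood at 90.8, 94.5 and 99.6 CPM in DMSO, while HU read 35.3, 33.0 and 35.9 CPM and Thy-Noc 95.7, 83.1 and 100 CPM. Both were set apart by HU: their HU minus Thy-Noc differences were 1.28 (edgeR adjusted p = 0.0119) and -1.42 (0.0114) on the log2 scale.

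A wider set of genes separated the groups, mostly without passing the test. All 6 treated libraries lay outside the DMSO range on the same side for 413 genes (3.64%), 217 higher (1.91%) and 196 lower (1.73%), and with changes of like size for 122 higher (1.08%) and 144 lower (1.27%). An unadjusted edgeR p under 0.05 was reached by 721 genes higher (6.35%) and 677 lower (5.97%). Of the 813 tested genes on 33 lists of pathways and cell states, 26 lay higher without overlap and 12 lower, 4.67% together beside the 3.64% of all genes. SLBP and FCRL3 were the members of these lists past the adjusted threshold. Unchanged genes can also lie outside the DMSO range by the order of the libraries alone, and how many did was not tested. A lack of overlap is therefore not read as a response on its own. The genes named in the next paragraphs are mainly listed genes whose groups did not overlap, chosen after their values were seen.

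**Figure D3:**
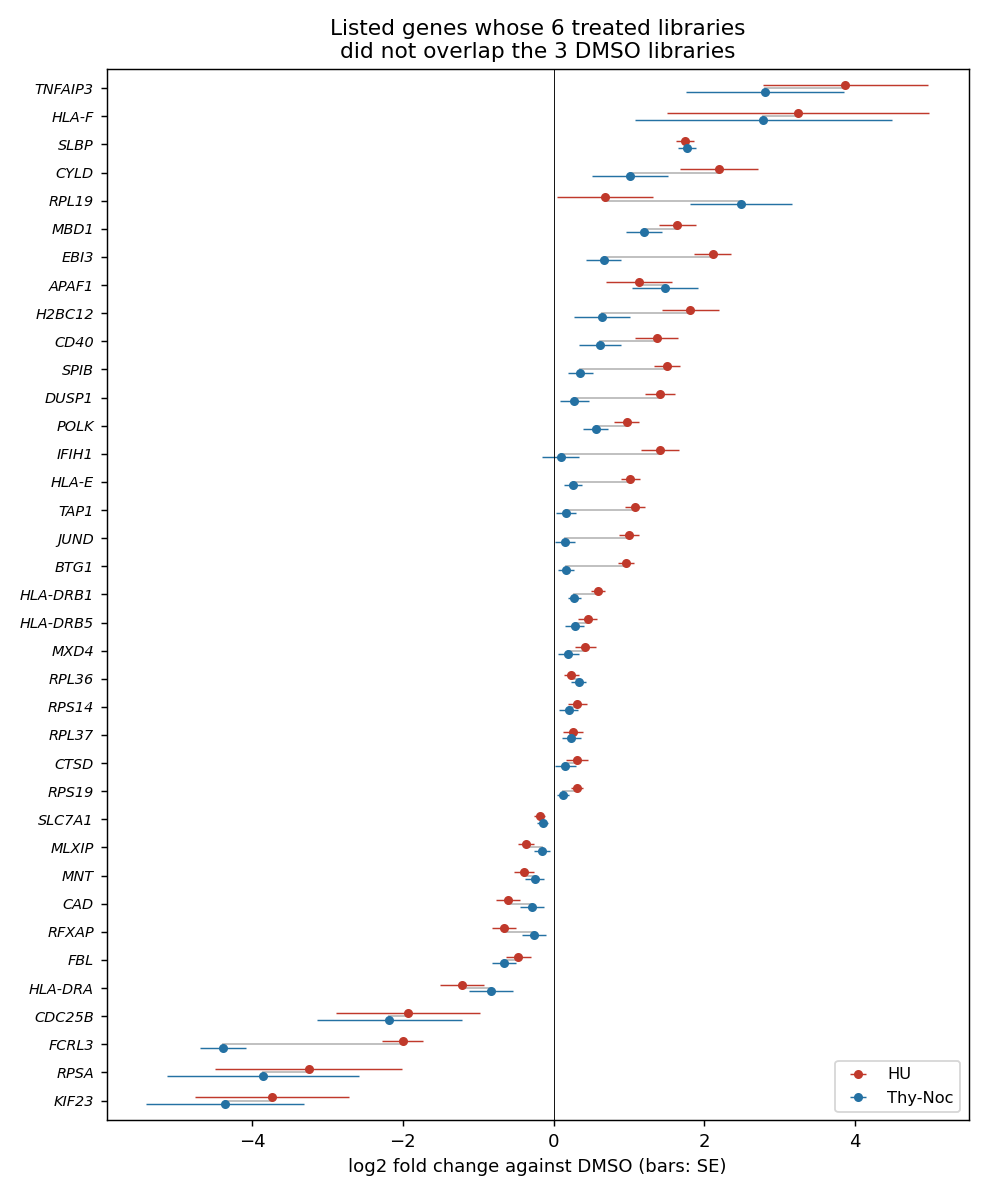
Log2 change against DMSO under HU and under Thy-Noc, with standard errors, for 37 of the 38 listed genes whose 6 treated libraries did not overlap the 3 DMSO libraries. SLBP and MBD1 show like changes under both treatments with short bars, while EBI3, SPIB, DUSP1, IFIH1, TAP1 and JUND are higher mainly in HU, and TNFAIP3, HLA-F, RPSA, CDC25B and KIF23 have wide bars.

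Genes of mitosis and G2/M were split between the treatments. Of 49 tested, 0 were higher and 10 lower at an unadjusted edgeR p under 0.05, beside 6.35% and 5.97% of all genes. In the adjusted test 0 passed (by DESeq2, 0 higher and 6 lower, and by limma, 0 and 0). Over all genes, DESeq2 called 4.31% higher and 3.75% lower, and limma 0.106% and 0.0617%. The list's median log2 change by library was -0.64, -0.87 and -0.60 in HU and, for Thy-Noc, 0.22, 0.07 and 0.09, against -0.02 to 0.04 in DMSO. HU and Thy-Noc therefore lay on opposite sides of DMSO, and 7 of the 49 differed between the treatments, all lower in HU, beside 1.06% of all genes tested that differed in that direction. KIF23 and CDC25B were the 2 members whose 6 treated libraries all lay below DMSO. Without overlap were 4.08% of the list, beside 3.64% of all genes.

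KIF23, the kinesin of the centralspindlin complex that completes cytokinesis, stood at 77.3, 67.7 and 68.4 CPM in DMSO, while HU read 1.10, 7.98 and 6.87 CPM and Thy-Noc 7.97, 1.15 and 1.29 CPM. Each treated group spread over about the same low range. The pooled log2 value was -4.05 ± 0.788 (edgeR adjusted p = 0.19). CDC25B, a phosphatase that activates cyclin-dependent kinases at mitotic entry, stood at 53.5, 142 and 116 CPM in DMSO, while HU read 7.01, 41.7 and 32.9 CPM and Thy-Noc 50.9, 5.62 and 12.3 CPM. Its highest treated library nearly touched its lowest DMSO library, and the pooled value was -2.06 ± 0.768 (edgeR adjusted p = 0.353). Outside the lists, TROAP, a spindle-associated protein, read 29.7, 44.5 and 74.5 CPM in DMSO, all above its 6 treated libraries, which reached at most 12.5 CPM. Its pooled value was -4.04 ± 0.538 (edgeR adjusted p = 0.0878), with -5.42 in HU and -2.67 in Thy-Noc.

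SLBP was the 1 gene past the adjusted threshold among 38 G1/S and E2F targets. Of these, 3 were higher (SLBP included) and 3 lower at an unadjusted edgeR p under 0.05, beside 6.35% and 5.97% of all genes. The list's median pooled log2 change was 0.00. Among 13 histone genes tested, 4 were higher and 1 lower, with a median of 0.46. By library the histone median was 1.28, -0.27 and 0.82 in HU and, for Thy-Noc, 0.40, 0.11 and 0.20, so HU replicate 2 lay below DMSO (all 3 at -0.02) and the other treated libraries above it. H2BC12, a histone H2B gene, was the histone without overlap: 5.75, 3.91 and 5.21 CPM in DMSO, while HU read 25.2, 10.5 and 16.7 CPM and Thy-Noc 10.2, 5.87 and 7.08 CPM. The pooled value was 1.23 ± 0.335 (edgeR adjusted p = 0.256), and the lowest Thy-Noc library stood just above the highest DMSO library. Without overlap were 7.69% of the histone genes, beside 3.64% of all genes. Replication-dependent histone mRNAs mostly lack the poly(A) tail that mRNA kits select.

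Nucleotide synthesis genes were low in HU by their medians, at -0.39, -0.52 and -0.55 by library, while Thy-Noc stood at -0.08, 0.13 and -0.01. Of 34 tested, 0 were higher and 5 lower at an unadjusted edgeR p under 0.05, beside 6.35% and 5.97% of all genes. CAD, which starts pyrimidine synthesis, stood at 339, 358 and 347 CPM in DMSO, while HU read 205, 244 and 239 CPM and Thy-Noc 336, 304 and 219 CPM. It did not overlap DMSO and did not pass, at a pooled log2 value of -0.44 ± 0.137 (edgeR adjusted p = 0.281). Without overlap were 5.88% of the nucleotide synthesis genes, beside 3.64% of all genes. POLK, a translesion DNA polymerase, was the 1 of 49 DNA damage genes without overlap (2.04%, beside 3.64% of all genes). It stood at 16.6 to 21.6 CPM in DMSO, while HU read 31.8 to 39.6 CPM and Thy-Noc 24.5 to 31.1 CPM. Its pooled log2 value was 0.76 ± 0.149 (edgeR adjusted p = 0.19).

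Inflammatory and interferon lists stood higher in the pooled contrast, most of it from HU. Of 31 NF-kB pathway and target genes, 14 were higher and 0 lower at an unadjusted edgeR p under 0.05. Over all genes these shares were 6.35% and 5.97%. The list's median by library was 1.68, 1.48 and 1.48 in HU and, for Thy-Noc, 0.37, 0.48 and 0.33, against -0.25 to 0.16 in DMSO. All 6 treated libraries were thus above all 3 DMSO libraries for this list's median. Of 31 interferon-stimulated genes, 10 were higher and 0 lower, with medians of 1.66, 0.90 and 1.71 in HU and, for Thy-Noc, 0.06, 0.13 and 0.20, where DMSO ran from -0.30 to 0.18. Thy-Noc therefore overlapped DMSO for the interferon list. Of 25 AP-1 and immediate early genes, 11 were higher and 0 lower, at 1.19, 1.01 and 0.89 in HU and, for Thy-Noc, 0.03 to 0.11. No member of these lists passed the adjusted pooled test in edgeR, while DESeq2 called 9, 6 and 7 of them higher and limma 0, 0 and 1. Over all genes, DESeq2 called 4.31% higher and limma 0.106%. Of 12 myeloid markers 3 had values, summing to 0.923 to 1.14 CPM in DMSO, while HU read 1.61 to 5.68 CPM and Thy-Noc 0.918 to 1.37 CPM. Of 17 epithelial, stromal and erythroid markers 2 had values, at 3.38 to 5.41 CPM in DMSO, 11.2 to 17.7 CPM under HU and 3.25 to 7.42 CPM under Thy-Noc. The part of either marker set in these results was not tested.

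Among the NF-kB genes, EBI3, CD40, CYLD and TNFAIP3 did not overlap DMSO, a share of 12.9% beside 3.64% of all genes. EBI3, a cytokine subunit first found in virus-transformed B cells, stood at 35.3, 21.4 and 38.6 CPM in DMSO, while HU read 147, 137 and 127 CPM and Thy-Noc 41.8, 59.3 and 49.8 CPM. HU and Thy-Noc differed by 1.45 (edgeR adjusted p = 0.0392). CD40, the receptor for T-cell help, stood at 26.0, 22.7 and 36.2 CPM in DMSO, while HU read 90.0, 82.1 and 46.7 CPM and Thy-Noc 45.4, 39.0 and 45.6 CPM, with a pooled value of 0.99 ± 0.252 (edgeR adjusted p = 0.235). Its lowest HU library was close to the Thy-Noc libraries. CYLD and TNFAIP3 encode deubiquitinases that damp NF-kB signalling. CYLD stood at 8.05, 40.7 and 23.5 CPM in DMSO, while HU read 130, 93.4 and 106 CPM and Thy-Noc 51.1, 49.2 and 45.6 CPM. TNFAIP3 was under 1 CPM in every DMSO library (0.329, 0.186 and 0.0127) and reached 0.712 to 5.14 CPM in HU and 0.968 to 1.67 CPM in Thy-Noc. It met the CPM filter through treated libraries only, which favoured its lack of overlap. It remained in 6 of the 9 fits without a library.

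Among immediate early genes, JUND, another AP-1 subunit, stood at 19.9 to 23.9 CPM in DMSO, while HU read 40.7 to 50.2 CPM and Thy-Noc 24.3 to 24.6 CPM. DUSP1, a phosphatase that switches off MAP kinases, stood at 2.09 to 2.35 CPM in DMSO, while HU read 5.05 to 6.99 CPM and Thy-Noc 2.46 to 2.97 CPM. In both, Thy-Noc lay just above DMSO without overlap and HU well above it. IFIH1, a sensor of double-stranded RNA and the interferon-stimulated gene without overlap, stood at 41.7 to 44.8 CPM in DMSO, while HU read 132, 69.2 and 141 CPM and Thy-Noc 44.8 to 46.2 CPM, where the lowest library barely exceeded the highest of DMSO. Without overlap were 3.23% of the interferon list and 8% of the AP-1 list, beside 3.64% of all genes.

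Antigen presentation genes went both ways by their deposited values. Of 17 genes of MHC class II, 5 were higher and 2 lower at an unadjusted edgeR p under 0.05, and 4 had no overlap, 2 in each direction. Over all genes 6.35% were higher and 5.97% lower at that level, and 3.64% had no overlap. HLA-DRB1, a class II beta chain, stood at 100, 90.2 and 108 CPM in DMSO, while HU read 154, 147 and 150 CPM and Thy-Noc 122, 116 and 124 CPM, a pooled log2 value of 0.43 ± 0.0789 (edgeR adjusted p = 0.178). HLA-DRB5, its close relative, ran the same way at 0.36 ± 0.111 (edgeR adjusted p = 0.281), and reads of these near-identical genes may be split between them. HLA-DRA, the alpha chain that pairs with both, stood at 2.67, 3.76 and 4.91 CPM in DMSO, while HU read 1.78, 1.69 and 1.43 CPM and Thy-Noc 1.57, 2.41 and 2.41 CPM, a pooled log2 value of -1.02 ± 0.243 (edgeR adjusted p = 0.231). HLA-DRA thus stood far below HLA-DRB1. The deposited values may not hold all reads of a gene, so its low level and its fall may not be those of the whole gene. RFXAP, a subunit of the factor that switches on class II genes, was also without overlap, at -0.46 ± 0.139 (edgeR adjusted p = 0.281).

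Of 18 class I and peptide loading genes, 4 were higher and 0 lower at that level. HLA-E, which presents leader peptides to NK cells, stood at 120, 112 and 127 CPM in DMSO, while HU read 282, 207 and 237 CPM and Thy-Noc 143, 140 and 144 CPM. TAP1, a subunit of the peptide transporter, stood at 202, 204 and 208 CPM in DMSO, while HU read 481, 344 and 471 CPM and Thy-Noc 212, 231 and 244 CPM. Both showed HU highest and Thy-Noc slightly above DMSO, and both differed between the treatments, by 0.77 and 0.91 on the log2 scale (edgeR adjusted p = 0.0383 and 0.0358). SPIB, an ETS factor of B cells and the germinal centre, followed the same order, at 84.6 to 99.7 CPM in DMSO, while HU read 230 to 317 CPM and Thy-Noc 101 to 139 CPM. Over the 33 germinal centre regulators tested, 4 were higher and 4 lower at an unadjusted edgeR p under 0.05, and the median was 0.00. For both lists the shares over all genes at that level were 6.35% higher and 5.97% lower.

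Ribosome biogenesis and MYC-bound genes stood lower in HU by their medians. Of these 42 genes, 0 were higher and 10 lower at an unadjusted edgeR p under 0.05, beside 6.35% and 5.97% of all genes. Their medians were -0.50, -0.37 and -0.40 in HU and, for Thy-Noc, 0.02, -0.19 and 0.08. FBL, the fibrillarin methyltransferase of the nucleolus, was the member without overlap: 1406, 1394 and 1629 CPM in DMSO, while HU read 889, 1275 and 1042 CPM and Thy-Noc 796, 978 and 1029 CPM. Its pooled value was -0.56 ± 0.137 (edgeR adjusted p = 0.233), with Thy-Noc at -0.66 and HU at -0.47. Without overlap were 2.38% of this list, beside 3.64% of all genes. Of 76 cytosolic ribosomal protein genes, 5 lay higher and 1 lower without overlap, a share of 7.89% beside 3.64% of all genes. RPL36, a large-subunit protein, was among them, at 42.2, 41.8 and 39.5 CPM in DMSO, while HU read 45.1, 52.2 and 48.2 CPM and Thy-Noc 52.2, 51.3 and 52.1 CPM. RPSA, a small-subunit protein, ranged from 0.150 to 49.97 CPM over the 9 libraries, and many ribosomal protein genes have processed pseudogenes that could take their reads. In the MYC and MAX network of 12 genes, MXD4 lay higher and MNT and MLXIP lower without overlap, at 0.31, -0.32 and -0.26 on the log2 scale, and 0 passed in edgeR's adjusted test (1 higher and 2 lower at an unadjusted p under 0.05; DESeq2 called 0 higher and 2 lower, limma 0). Over all genes, DESeq2 called 4.31% higher and 3.75% lower, and limma 0.106% and 0.0617%. MYC itself ranged from 14.7 to 428 CPM, a pooled log2 value of -1.21 ± 0.842 (edgeR adjusted p = 0.624).

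Among 26 genes of DNA methylation and methyl-CpG reading, 3 were higher and 2 lower at an unadjusted edgeR p under 0.05. Over all genes these shares were 6.35% and 5.97%. MBD1, a methyl-CpG binding repressor that the series' title names, was the member without overlap (3.85% of the list, beside 3.64% of all genes). It stood at 50.9, 44.1 and 64.0 CPM in DMSO, while HU read 174, 162 and 160 CPM and Thy-Noc 104, 93.8 and 166 CPM. HU libraries were close together, and Thy-Noc replicate 3 stood with HU while the other Thy-Noc libraries lay between HU and DMSO. The pooled log2 value was 1.42 ± 0.218, which missed the threshold (edgeR adjusted p = 0.13), with 1.64 in HU and 1.19 in Thy-Noc. DESeq2 called it and limma did not. MBD1 (ENSG00000141644) is at chr18:50266882-50281774 on the minus strand with 27 annotated transcripts.

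Among 26 p53 targets, 6 were higher and 1 lower at an unadjusted edgeR p under 0.05, beside 6.35% and 5.97% of all genes. BTG1, an antiproliferative gene often mutated in B-cell lymphoma, stood at 17.1, 17.97 and 18.7 CPM in DMSO, while HU read 35.4, 33.2 and 35.8 CPM and Thy-Noc 20.5, 19.98 and 19.8 CPM. CDKN1A, the p53-induced inhibitor of cyclin-dependent kinases, stood at 6.96, 20.2 and 11.9 CPM in DMSO, while HU read 57.2, 18.7 and 10.02 CPM and Thy-Noc 9.51, 6.65 and 8.66 CPM. Its high value came from HU replicate 1, and the pooled value of 0.24 ± 0.574 turned to -0.25 without that library. Of 31 apoptosis regulators, 5 were higher and 0 lower. APAF1, the scaffold of the apoptosome, stood at 8.20, 17.6 and 11.4 CPM in DMSO, while HU read 25.6, 29.9 and 25.7 CPM and Thy-Noc 20.3, 57.1 and 26.0 CPM, a pooled log2 value of 1.30 ± 0.398 (edgeR adjusted p = 0.281) with like changes under both treatments. Raji is known to carry mutant p53.

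**Figure D4:**
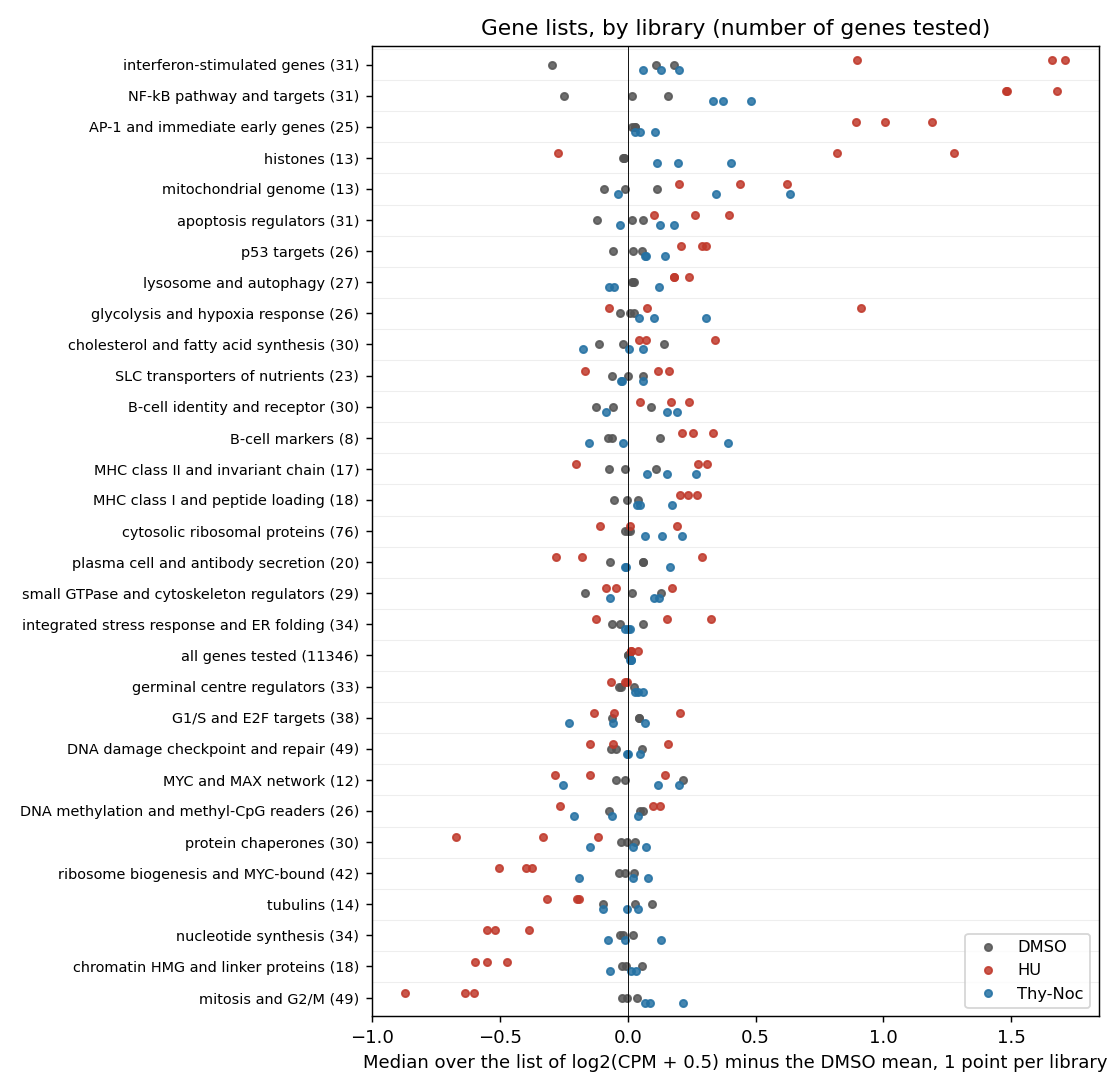
Median over each of 30 gene lists, and over all 11346 genes, of log2(CPM + 0.5) minus the gene's DMSO mean, with 1 point per library and the number of genes tested in brackets. Interferon, NF-kB and AP-1 lists lie to the right and mitosis, chromatin HMG, nucleotide synthesis and ribosome biogenesis lists to the left in the 3 HU libraries, with Thy-Noc points mostly near 0.

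The difference between the treatments was tested directly, since it limits what the pooled mean can show. HU and Thy-Noc differed for 199 genes (1.75%), 79 higher in HU (0.696%) and 120 lower (1.06%), and for 106 of them (0.934%; 0.229% higher and 0.705% lower in HU) the log2 changes under HU and Thy-Noc had opposite signs. That count uses the sign alone, and includes genes whose change under 1 treatment was near 0, such as ZEB1 (-0.02 ± 0.798 in Thy-Noc). VEGFA, an angiogenic growth factor, stood at 69.7, 48.1 and 43.4 CPM in DMSO, while HU read 85.7, 79.0 and 64.1 CPM and Thy-Noc 6.66, 2.76 and 2.18 CPM, a difference of 4.30 (edgeR adjusted p = 0.0173). FDXR, a mitochondrial ferredoxin reductase, stood at 21.5, 28.2 and 19.9 CPM in DMSO, while HU read 12.4, 19.3 and 9.34 CPM and Thy-Noc 134, 69.5 and 95.6 CPM, a difference of -2.87 (edgeR adjusted p = 0.0235). Thy-Noc libraries set VEGFA and FDXR apart, in opposite directions, while HU overlapped DMSO in VEGFA and lay just below it in FDXR. Leaving out HU replicate 2 gave 154 differing genes, and leaving out any other library 1 to 51, the fewest without Thy-Noc replicate 3. In the 9 fits without a library, the difference passed 5 times for VEGFA and 3 times for FDXR.

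ZEB1 and LMO2, both transcription regulators, were high in HU alone by their values. ZEB1 stood at 1.03, 0.103 and 1.30 CPM in DMSO, while HU read 90.4, 99.0 and 121 CPM and Thy-Noc 0.368, 0.946 and 1.08 CPM. LMO2, a germinal centre marker, stood at 5.61, 2.73 and 3.62 CPM in DMSO, while HU read 24.6, 16.1 and 26.6 CPM and Thy-Noc 3.79, 2.90 and 3.94 CPM. BET1, a vesicle transport SNARE, was high in Thy-Noc alone, at 42.9, 39.2 and 39.4 CPM against at most 1.33 CPM in every DMSO and HU library. In these 3 genes the treatment that was not high overlapped DMSO, and HU and Thy-Noc differed by 7.02, 2.66 and -6.70 on the log2 scale (edgeR adjusted p = 0.0346, 0.0238 and 0.023), which passed in 1, 3 and 4 of the 9 fits without a library. Of the lists, chromatin HMG and linker proteins held 8 of 18 genes lower in HU than in Thy-Noc, AP-1 and immediate early genes 5 of 25 higher, and NF-kB and MHC class I genes 3 each. Over all genes tested, 1.06% were lower and 0.696% higher in HU by this test. The lists were chosen with earlier results of these data known.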

How the data were processed

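RNA from 9 samples was sequenced after a stranded mRNA library kit (labels' protocols). STAR, DESeq2, FastQC and Trim Galore appear in the submitters' processing notes with no version, beside GRCh38, but the counting step and its use of strand were not given in the sources used. A single table was deposited by the authors, whose name says CPM but whose integers sum to different library totals, so the deposited values were taken to be expected counts, already made whole. None is 0 and 274 genes stand at 1 in all libraries. Unsteady genes made up 1.39% of those with 1 annotated transcript and 26.3% of those with more than 10. Some reads of a gene may be missing from its value, which was not tested. Identifiers matched gene names for 15393 of 15436, and positions are from GENCODE 29.

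Genes at 1 CPM or more in 3 or more libraries were fitted in R 4.3.3 with edgeR 4.0.16 (TMM scaling, quasi-likelihood, 3 groups, 9 libraries, 6 residual degrees of freedom), with 2-sided tests adjusted by Benjamini-Hochberg over the 11346 genes. CPM values use TMM-scaled totals. Libraries of a group differed far beyond sampling noise (chi-square per degree of freedom at least 930), so none repeats another of its group. Tested genes had a median count of 1187, and spread between libraries limited precision more than depth. The steps were tested on simulated counts. Alternatives were other filters and scalings, DESeq2 1.42.0, limma 3.58.1, a replicate block and leaving out libraries or unsteady genes. A test planned for CPM (limma) became an alternative because the values were counts.

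Named genes were the largest pooled changes among genes that moved alike, list members, the largest opposite changes and a fixed set. Members and lists were chosen with earlier results of these data known. Some genes are not reported here. Standard errors are the absolute log2 change divided by the square root of F.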

Additional observations from a re-analysis of the deposited data

Results flagged for a closer look

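These genes are listed because HU and Thy-Noc differed in the direct test (edgeR's quasi-likelihood test, Benjamini-Hochberg adjusted over all genes), each value being the HU minus Thy-Noc difference on the log2 scale. Among genes past the pooled threshold, FCRL3 differed by 2.39, JSRP1 by 1.62 and ABHD17B by -5.12. The pooled mean of these 3 genes therefore averages unequal changes. Just outside the threshold, JUNB differed by 1.28 and NCKAP1 by -1.42.

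Among listed genes without overlap, the differences were 0.792 for BTG1, 1.45 for EBI3, 0.846 for JUND, 1.14 for DUSP1, 0.766 for HLA-E, 0.915 for TAP1 and 1.15 for SPIB. All 7 were higher in HU, and all lay above DMSO in every treated library.

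Among genes whose fitted changes had opposite signs, some of them near 0 under 1 treatment, VEGFA differed by 4.30, ZNF189 (a zinc finger gene) by 2.34, LMO2 by 2.66, WDR19 (a transport protein of cilia) by 5.27 and ZEB1 by 7.02, higher in HU. GNG2 (a G protein gamma subunit) differed by -4.97, TUBGCP2 (a gamma-tubulin complex subunit) by -2.26, FDXR by -2.87 and BET1 by -6.70, higher in Thy-Noc. WDR19 stood at 1.53, 0.615 and 0.940 CPM in DMSO, while HU read 27.0, 16.8 and 21.1 CPM and Thy-Noc 0.450, 0.246 and 0.982 CPM. GNG2 stood at 2.78, 5.30 and 7.95 CPM in DMSO, while HU read 0.177, 0.427 and 0.400 CPM and Thy-Noc 10.2, 7.26 and 14.2 CPM. TUBGCP2 stood at 256, 113 and 205 CPM in DMSO, while HU read 123, 50.9 and 78.7 CPM and Thy-Noc 380, 354 and 476 CPM. TUBGCP2 did not pass in any fit without a library.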

How the results depend on the processing

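The main counts were 5 genes higher and 3 lower in the pooled test, 4 and 1 moved alike, 199 differing between HU and Thy-Noc, and 217 higher and 196 lower without overlap. Without the filter on low counts, 3 genes were higher and 64 differed between treatments, and with a CPM minimum of 5, 313 differed. DESeq2 gave 489 higher and 425 lower, 79 and 68 moved alike, and 1826 differing. Limma on log2(CPM + 0.5) gave 12 and 7, with 4 moved alike downwards and 326 differing; with 0.1 added it gave 12, 5, 2 and 311, and with 1 added 15, 10, 6 and 346. Without unsteady genes the counts were 13, 9, 3 and 472. With the treated libraries as a single group 1 was lower, and with a size limit of 0.25 or none 2 moved alike downwards (WDR41 and FCRL3). Restricted to genes with at most 3 annotated transcripts, an alternative chosen after the data were seen, 26 were higher and 14 lower, 0 moved alike upwards, 328 differed, and 63 and 45 had no overlap; 2458 genes were tested there, and of the 5 that moved alike none is among them.

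Same-numbered libraries of different groups did not deviate together (correlations from -0.035 to 0.04 over 9 pairs, and from -0.054 to 0.033 over 18 pairs with different numbers), so the numbers were not taken to pair samples. With the replicate number as a block, 0 genes passed in each of these tests (0 higher, 0 lower, 0 moved alike in either direction, 0 differing), with fewer residual degrees of freedom. SLBP, CRIP3 and FCRL3 then stood at an edgeR adjusted p of 0.0786.

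Leaving out each library in turn gave 3 to 12 genes higher, 2 to 9 lower, 3 to 10 moved alike upwards and 0 to 3 downwards, 1 to 154 differing between treatments (1 without Thy-Noc replicate 3), 256 to 499 higher without overlap and 238 to 447 lower, where fewer libraries make no overlap easier. CDKN1A, at 0.239 in the main fit, ran from -0.255 to 0.712 and changed sign without DMSO replicate 1 (-0.0624) and without HU replicate 1 (-0.255). All 5 genes that moved alike did so again under the CPM minimum of 5, both other scalings, DESeq2, the 3 limma fits, robust dispersions, the single treated group and without unsteady genes. ZNF274 did not without the filter. Precision was limited by the spread between libraries: the median standard error of the pooled log2 change was 0.18 among genes with 1 annotated transcript, 0.209 with 2 to 3, 0.297 with 4 to 10 and 0.509 with more. The cause of these differences was not tested.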

Other observations

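Over all genes, 71 lay higher and 79 lower than DMSO in all 6 treated libraries with changes of like size, a mean CPM of at least 5 and steady libraries. The following were chosen after their values were seen, and none passed the adjusted pooled test. CNTNAP4, a neuronal cell adhesion protein of the neurexin family, stood at 0.177, 0.0839 and 0.114 CPM in DMSO, while HU read 1.996, 9.198 and 21.9 CPM and Thy-Noc 12.8, 14.3 and 11.3 CPM, with a pooled log2 value of 6.56 ± 0.913 (edgeR adjusted p = 0.091). It met the CPM filter through treated libraries only. CLK4, a kinase that phosphorylates splicing factors, stood at 13.02, 10.5 and 11.4 CPM in DMSO, while HU read 22.2, 63.1 and 50.4 CPM and Thy-Noc 29.4, 28.9 and 16.7 CPM. UQCRC2, a core subunit of respiratory complex III, stood at 3.32, 5.25 and 6.35 CPM in DMSO, while HU read 14.6, 14.5 and 8.34 CPM and Thy-Noc 15.2, 18.9 and 9.40 CPM. In CLK4 and UQCRC2 all 6 treated libraries lay above all 3 DMSO libraries.

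In the other direction, NR3C1, the glucocorticoid receptor, stood at 78.0, 53.2 and 105 CPM in DMSO, while HU read 37.0, 19.3 and 48.0 CPM and Thy-Noc 13.9, 36.0 and 51.0 CPM, a pooled value of -1.21 ± 0.444 (edgeR adjusted p = 0.35). EEF1A1, a translation elongation factor with many processed pseudogenes, stood at 468, 703 and 426 CPM in DMSO, while HU read 339, 137 and 198 CPM and Thy-Noc 239, 331 and 319 CPM. EML3, a microtubule-binding protein, stood at 125, 114 and 144 CPM in DMSO, while HU read 81.0, 74.7 and 68.1 CPM and Thy-Noc 59.1, 54.9 and 97.0 CPM, a pooled value of -0.82 ± 0.191 (edgeR adjusted p = 0.23). The 13 genes of the mitochondrial genome had median changes of 0.62, 0.44 and 0.20 in the HU libraries and 0.64, -0.04 and 0.35 in Thy-Noc, and Thy-Noc replicate 2 alone stood within DMSO.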
